A study of Mus musculus with 54 samples.

Results

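The 8 genes described here, Cdx1, Cdx2, Cdx4, T, Evx1, Nkx1-2, Tbx6 and Fgf8, mark the posterior growth zone of the mouse embryo. They were chosen by name from the raw count table, whose Ensembl identifiers were paired with symbols through GENCODE M21, and all 8 were found among its 55401 genes. Their levels were read by RNA sequencing in mouse embryonic stem cell lines that differ in EZH2, and the genes were followed in every line both undifferentiated (mESC) and after the removal of 2i and LIF, the inhibitors and the cytokine that hold stem cells undifferentiated, with brief exposure to all-trans retinoic acid (ATRA).

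The posterior growth zone lies at the tail end of the embryo and adds new tissue to the trunk and tail as the body axis lengthens. Its cells are kept going by WNT and FGF signals, FGF8 among them, and by the transcription factors T (Brachyury) and the CDX proteins, which also turn on trunk and posterior Hox genes. Retinoic acid made by the forming somites opposes FGF8 at the front edge of the zone, and TBX6 directs cells leaving it towards paraxial mesoderm. EZH2 is the enzyme of Polycomb repressive complex 2 (PRC2). The complex methylates histone H3 at lysine 27 and keeps many developmental transcription factor genes silent in stem cells, mostly at promoters rich in CpG dinucleotides.

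Of the 54 samples in the series, 48 libraries in 16 groups of 3 were analysed, which are 8 lines in 2 states. The variant lines are A677T, R679C, K634E, K563E and A733T, each named for the change in an EZH2 that was added to the heterozygous line. The WT line is the heterozygous line with wild-type EZH2 added. The heterozygous line (het, Ezh2 fl/Δ) has lost 1 of its Ezh2 alleles, and the parental line carries both (fl/fl). The variant and WT lines therefore all share the single remaining Ezh2 allele of the het line. The log2 mean over 4 of them, A677T, R679C, K634E and K563E, is called the Weaver mean, after the overgrowth syndrome the series is about. A733T was kept apart as the growth restriction-associated variant from general knowledge of the study, since the labels do not say which variant that is. Neither the promoter that drives the added EZH2 nor the number of clones behind a line is given in the labels, so a line and the clone it came from cannot be told apart. The labels do not state whether the replicates came from separate cultures, so the spread that the p-values rest on may be technical.

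The mESC libraries held 15361598 to 29614420 counts and the ATRA libraries 15612700 to 31338825. Libraries of 1 group differed by more than counting error in all 48 pairs. The A677T replicate 3 library in mESC and the K634E replicate 3 library in ATRA stood apart from their groups. For genes with a mean above 4 CPM, each mESC library's deviations from the mean over all mESC libraries were rank-correlated with gene GC content. This correlation ran from 0.49 to 0.72 in WT and from -0.72 to 0.01 in A677T. It ran from -0.37 to 0.11 in R679C, -0.71 to -0.27 in K634E, -0.57 to -0.01 in K563E and -0.05 to 0.40 in A733T. Every variant thus lay below WT in mESC. Among ATRA libraries it ran from -0.27 to 0.55 in WT, and the range of each variant overlapped with that of WT. Cdx1, Evx1 and Fgf8 are the members richest in GC, with 61.2% to 62.8% in their longest transcripts. Ezh2 was at 439 ± 22.7 CPM in WT mESC, against 280.4 ± 4.11 CPM in het mESC and 302 ± 0.870 CPM in parental mESC (SD, n = 3 each), where CPM is counts scaled to a library of 1e+06 counts after TMM normalisation. WT exceeded het by a log2 fold change of 0.65 (SE 0.07) in mESC and 0.60 (SE 0.06) in ATRA. The variant lines differed from WT in Ezh2 as well. Its mean in mESC was 559.6 CPM in A677T, 488 in R679C, 537 in K634E, 513 in K563E and 360.2 CPM in A733T. The Weaver mean exceeded WT by 0.29 (SE 0.05, adjusted p = 0.000112) in mESC and 0.18 (SE 0.05, adjusted p = 0.00422) in ATRA, where R679C alone did not pass (0.09, SE 0.06, adjusted p = 0.360). A733T differed from WT by -0.26 (SE 0.07, adjusted p = 0.00676) in mESC and -0.40 (SE 0.06, adjusted p = 1.47e-05) in ATRA, and from the Weaver mean by -0.55 (SE 0.06) and -0.58 (SE 0.05). In the comparisons of variants with WT, and of A733T with the Weaver mean, the variant and the level of Ezh2 cannot be told apart. The Ezh2 count takes the endogenous and the added gene together as far as their sequences agree, so it does not tell the alleles apart. All 11 of the stem cell markers, among them Nanog, Esrrb, Klf4 and Prdm14, were detected, and their summed level was 583 to 1014 CPM in ATRA libraries and 4869 to 6288 CPM in mESC libraries.

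Promoters of 4 members are shown because Evx1 and Nkx1-2 were both higher than WT in the Weaver mean of undifferentiated cells and Cdx2 and Cdx4 both lower after ATRA, and because PRC2 is known for its hold on CpG-rich promoters. The sequences are RefSeq windows on GRCm38.p6 of 300 bases, 250 before the transcription start and 50 after it, written 5′ to 3′ on the gene's own strand with every CG dinucleotide in capitals. Such windows were had for 6 of the 8 members, without Cdx1 and Fgf8.
Nkx1-2, chr7:132599588-132599887, minus strand: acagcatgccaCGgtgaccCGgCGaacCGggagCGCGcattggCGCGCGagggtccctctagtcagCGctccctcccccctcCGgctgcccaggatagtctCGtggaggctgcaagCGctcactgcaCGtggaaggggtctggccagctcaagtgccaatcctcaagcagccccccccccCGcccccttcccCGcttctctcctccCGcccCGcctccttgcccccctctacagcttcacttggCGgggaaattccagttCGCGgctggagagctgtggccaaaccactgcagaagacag
Evx1, chr6:52313248-52313547, plus strand: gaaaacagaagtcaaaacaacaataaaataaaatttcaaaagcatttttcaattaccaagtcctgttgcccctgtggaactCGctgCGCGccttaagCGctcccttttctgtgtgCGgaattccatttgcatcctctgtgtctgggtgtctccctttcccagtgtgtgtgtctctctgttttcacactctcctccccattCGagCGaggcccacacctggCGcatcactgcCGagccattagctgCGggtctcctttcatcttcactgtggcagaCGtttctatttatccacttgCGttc
Cdx2, chr5:147307200-147307499, minus strand: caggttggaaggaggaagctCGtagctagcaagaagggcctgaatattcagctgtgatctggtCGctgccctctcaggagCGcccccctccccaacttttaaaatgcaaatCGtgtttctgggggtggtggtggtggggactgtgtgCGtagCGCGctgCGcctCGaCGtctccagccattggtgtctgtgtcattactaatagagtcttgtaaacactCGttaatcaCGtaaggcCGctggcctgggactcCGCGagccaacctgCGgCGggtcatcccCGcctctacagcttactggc
Cdx4, chrX:103321148-103321447, plus strand: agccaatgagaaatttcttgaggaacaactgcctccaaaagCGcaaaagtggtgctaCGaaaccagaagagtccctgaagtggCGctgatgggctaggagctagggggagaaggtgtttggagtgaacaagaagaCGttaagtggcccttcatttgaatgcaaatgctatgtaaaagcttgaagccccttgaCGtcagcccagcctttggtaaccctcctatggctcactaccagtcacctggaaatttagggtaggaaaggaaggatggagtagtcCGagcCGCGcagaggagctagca
The Nkx1-2 window held 21 CpG, that of Cdx2 18, that of Evx1 12 and that of Cdx4 8. The T window held 17 and the Tbx6 window 7, and the median over all 32851 windows was 7. All 4 printed windows were therefore above the median, Nkx1-2 at percentile 75.2 and Cdx4 at percentile 51.4. The letters AGGTCA, a retinoic acid receptor half-site, were searched on both strands and occurred in none of the 6 member windows and in 16.3% of all windows. TTTATG, a CDX motif, occurred in the T window and in 11.9% of all windows, and TTTATA, another, whose letters overlap those of a TATA box, in the Tbx6 window and in 13.6%. The T window also held CTTTGAA, a TCF/LEF motif found in 5.14% of all windows, and the Evx1 window held AGGTGTG, a T-box motif found in 5.84%. A match describes the letters of these windows and does not show binding.

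On GRCm38 (GENCODE M21) the members lie apart from each other. Cdx1 is at chr18:61018862-61036199 on the minus strand, Cdx2 at chr5:147300805-147307270 on the minus strand and Cdx4 at chrX:103321398-103330592 on the plus strand. T is at chr17:8434423-8442496 on the plus strand and Tbx6 at chr7:126781483-126785560 on the plus strand. Evx1 is at chr6:52313498-52318378 on the plus strand, where the antisense gene Evx1os overlaps it. Nkx1-2 is at chr7:132594878-132599637 on the minus strand, where Fgfr2 on the same strand and Gm16764 on the opposite strand overlap it. Fgf8 is at chr19:45736798-45742915 on the minus strand.

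The level of each gene per kilobase of exon gives the order of the members in WT cells. In WT mESC, Cdx1 averaged 69.1 CPM per kilobase, Nkx1-2 9.38 and T 1.23. The other 5 lay below 1, with Cdx2 at 0.440, Fgf8 at 0.347, Tbx6 at 0.336, Evx1 at 0.267 and Cdx4 at 0.0417 CPM per kilobase. In WT ATRA cells the order was Cdx1 at 32.1, Nkx1-2 at 2.68, Cdx2 at 1.88 and Cdx4 at 1.31 CPM per kilobase, with T, Fgf8, Tbx6 and Evx1 below 1. The genes share a name as a posterior set, yet in these WT cells only Cdx1 and Nkx1-2 were above 2 CPM per kilobase in both states. The filter on low counts was passed by 6 members in mESC, without Cdx4 and Fgf8, by 7 in ATRA, without Evx1, and by all 8 where both states were fitted together.

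**Figure D1:**
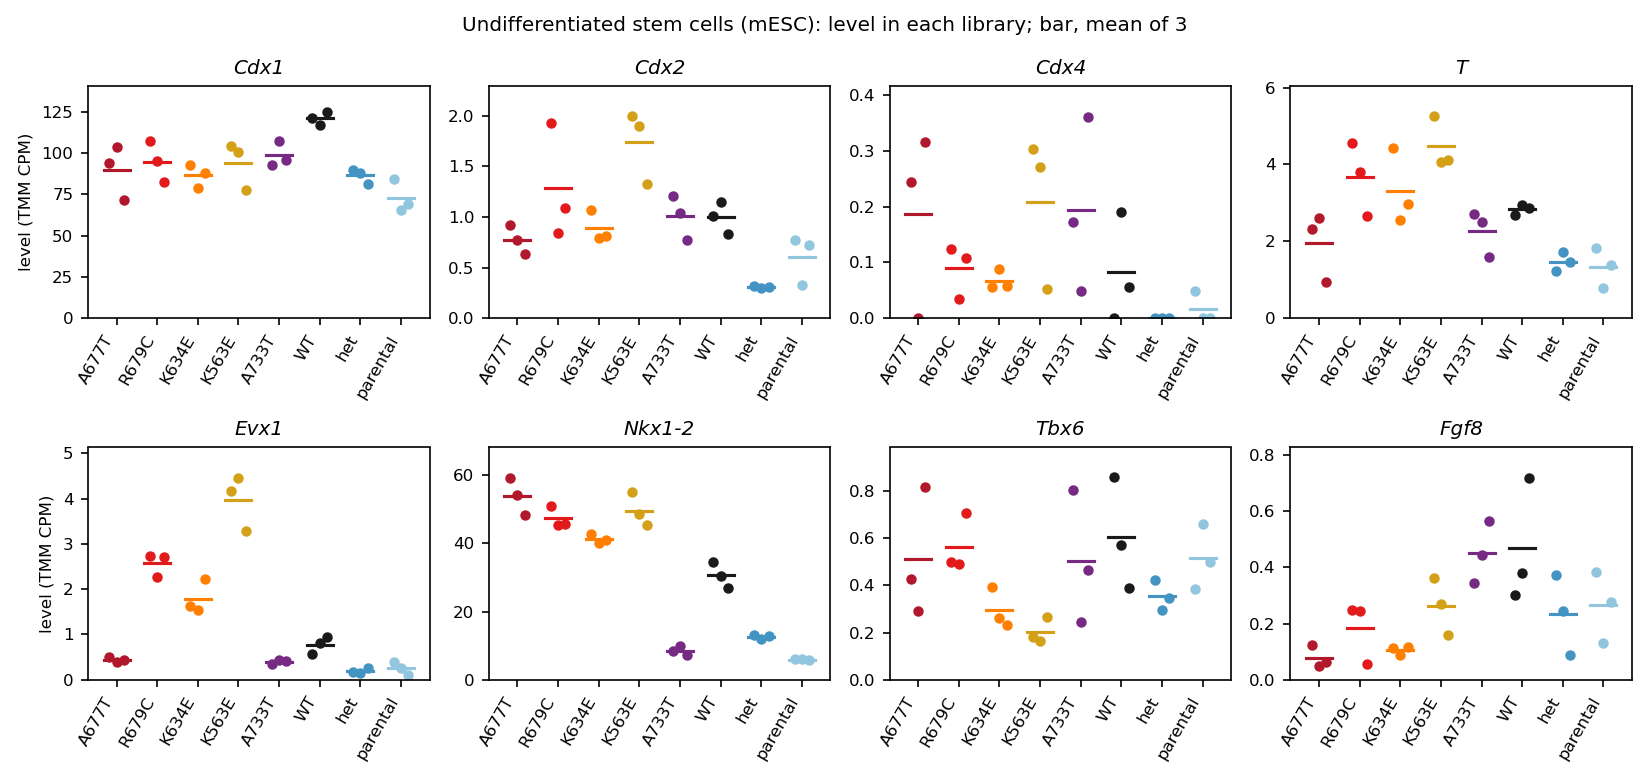
Level of each of the 8 genes in each undifferentiated library, in TMM CPM on the y axis, by line on the x axis, with points for libraries and a bar for the mean of 3. Nkx1-2 lies at 40.1 CPM and above in A677T, R679C, K634E and K563E, and at 9.76 CPM and below in A733T.

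Differentiation was compared with the undifferentiated state within each line first, since it sets the level at which the lines are later compared. After ATRA, Cdx2 and Cdx4 rose in all 8 lines, while T and Nkx1-2 fell in all 8 and Cdx1 fell in all but A733T. In WT cells 6 of 8 members changed, 2 higher and 4 lower, where 59.0% (29.8% higher and 29.2% lower) of all genes tested changed at an adjusted p under 0.05. Of these 6, Cdx4 did not pass the filter on low counts within mESC, nor Evx1 within ATRA. Both entered the joint fit through the state where they were high, which favoured the direction found. The median log2 fold change in WT was -0.48 over the members that passed the filter and 0.02 over all genes tested. The 8 lines are separate sets of libraries, but they descend from 1 parental line. The removal of 2i and LIF and the exposure to ATRA came together in every line, so their effects cannot be told apart. Wording such as after ATRA or response to ATRA therefore stands for both. In bulk samples, fewer cells expressing a gene and less RNA per cell cannot be told apart.

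Cdx2, which specifies the posterior body axis, the intestine and the trophectoderm, had 4.36, 4.59 and 3.80 CPM in the WT ATRA libraries, against 1.01, 1.14 and 0.829 CPM in WT mESC. The states did not overlap, and the log2 fold change was 2.08 (SE 0.21, adjusted p = 6.19e-12). In the other lines it ran from 0.84 in A677T to 3.74 in A733T. Cdx4, the X-linked family member that acts with Cdx2 in axis growth and blood formation, had 2.07, 2.93 and 2.73 CPM in WT ATRA cells, against 0, 0.191 and 0.0553 CPM in WT mESC, where its 3 libraries held 5 counts in all. Its log2 fold change in WT was 4.84 (SE 0.49, adjusted p = 1.48e-11). In het cells Cdx4 had 158 counts after ATRA and 0 in mESC, and was at least 43.2-fold higher when 3 counts over the group are taken as the floor. In parental cells it had 104 counts after ATRA and 1 in mESC, a ratio of 81.7 with a 95% counting interval of 14.3 to 3.26e+03. Such intervals and floors cover counting error only.

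Cdx1, which patterns the vertebrae through Hox genes and is itself a known retinoic acid target, went the other way. It had 56.3, 61.9 and 50.5 CPM in WT ATRA cells, against 121, 117 and 125 CPM in WT mESC. The log2 fold change was -1.10 (SE 0.13, adjusted p = 6.15e-10), and it was between -1.41 and -1.01 in A677T, R679C, K634E, K563E and het. In parental cells it was -0.42 (SE 0.13, adjusted p = 0.00442). In A733T it was -0.12 (SE 0.12, adjusted p = 0.421), with 88.2, 93.5 and 90.2 CPM in ATRA, against 92.5, 108 and 96.0 CPM in mESC, libraries that overlap. With the trend of each library's deviations on gene GC content taken out, called the GC correction here, that value became -0.21 (adjusted p = 0.000379).

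T, the T-box factor that primitive streak and axial progenitor cells depend on, had 1.25, 0.949 and 1.03 CPM in WT ATRA cells, against 2.68, 2.95 and 2.88 CPM in WT mESC. Its log2 fold change was -1.41 (SE 0.34, adjusted p = 0.000366) in WT, and the other 7 lines lay between -1.79 and -0.83. The calls in A677T and A733T were lost without any 1 of 4 libraries each, with adjusted p up to 0.248 and 0.127. Tbx6, the T-box factor of presomitic mesoderm, rose in K563E (1.39), A733T (0.99), het (1.30) and parental cells (1.08), and not past the threshold in WT (0.14, SE 0.38, adjusted p = 0.781). Its counts were low, and of these 4 calls only that in het held without each of the libraries in turn. The adjusted p reached 0.179 without the K563E replicate 1 library in ATRA, 0.197 without the A733T replicate 2 library in mESC and 0.0809 without the parental replicate 1 library in mESC.

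Evx1, a homeobox gene of the primitive streak, fell in WT to 0.273, 0.237 and 0.0447 CPM in ATRA, against 0.557, 0.810 and 0.940 CPM in mESC, a log2 fold change of -2.04 (SE 0.49, adjusted p = 0.000373). The log2 fold change was -3.98 (SE 0.43) in R679C and -4.57 (SE 0.43) in K563E, the lines with the highest mESC levels. In K634E it had 3 counts in the ATRA libraries and 102 in mESC, a ratio of 0.0318 with a counting interval of 0.00645 to 0.0956. In A677T it had 3 counts in ATRA and 23 in mESC, a ratio of 0.118 with an interval of 0.0227 to 0.392. In A733T, het and parental cells its change did not pass the test, with log2 fold changes of -0.43, -1.47 and -1.11.

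Nkx1-2, also called Sax1, a homeobox gene of the caudal epiblast and the preneural tube, had 9.71, 7.99 and 8.54 CPM in WT ATRA cells, against 34.5, 30.4 and 26.9 CPM in WT mESC. The states did not overlap, and the log2 fold change was -1.81 (SE 0.11, adjusted p = 1.22e-18). It lay between -3.43 and -2.82 in the 4 lines of the Weaver mean, and was -0.73 in A733T, -2.01 in het and -1.40 in parental cells. Nkx1-2 overlaps Fgfr2 on the same strand, whose level moved the opposite way after ATRA, at 30.6 CPM in WT ATRA cells and 0.374 CPM in WT mESC. Fgf8, the growth factor of the zone, rose in A677T (2.35), R679C (1.70), K634E (2.15) and het (1.30), from means of at most 0.235 CPM in mESC. In WT it had 0.327, 0.831 and 0.716 CPM in ATRA, against 0.304, 0.381 and 0.719 CPM in mESC, which overlap. The call in het was lost without the het replicate 3 library in mESC (adjusted p = 0.148).

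By line, the members that changed after ATRA are counted here beside the share of all genes tested. In A677T, 3 of 8 members tested were higher and 4 lower, beside 29.1% and 26.2% of all genes, 55.3% in all. In R679C, 3 of 8 members tested were higher and 4 lower, beside 30.2% and 27.3% of all genes, 57.5% in all. In K634E, 3 of 8 members tested were higher and 4 lower, beside 30.0% and 27.3% of all genes, 57.4% in all. In K563E, 3 of 8 members tested were higher and 4 lower, beside 30.4% and 27.4% of all genes, 57.8% in all. In A733T, 3 of 8 members tested were higher and 2 lower, beside 28.9% and 26.8% of all genes, 55.8% in all. In het, 4 of 8 members tested were higher and 3 lower, beside 29.4% and 27.4% of all genes, 56.8% in all. In parental cells, 3 of 8 members tested were higher and 3 lower, beside 28.6% and 26.5% of all genes, 55.2% in all. The counts are read only for their directions. They include Cdx4, Fgf8 and Evx1, which passed the filter within a single state, so the filter favoured their directions.

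**Figure D2:**
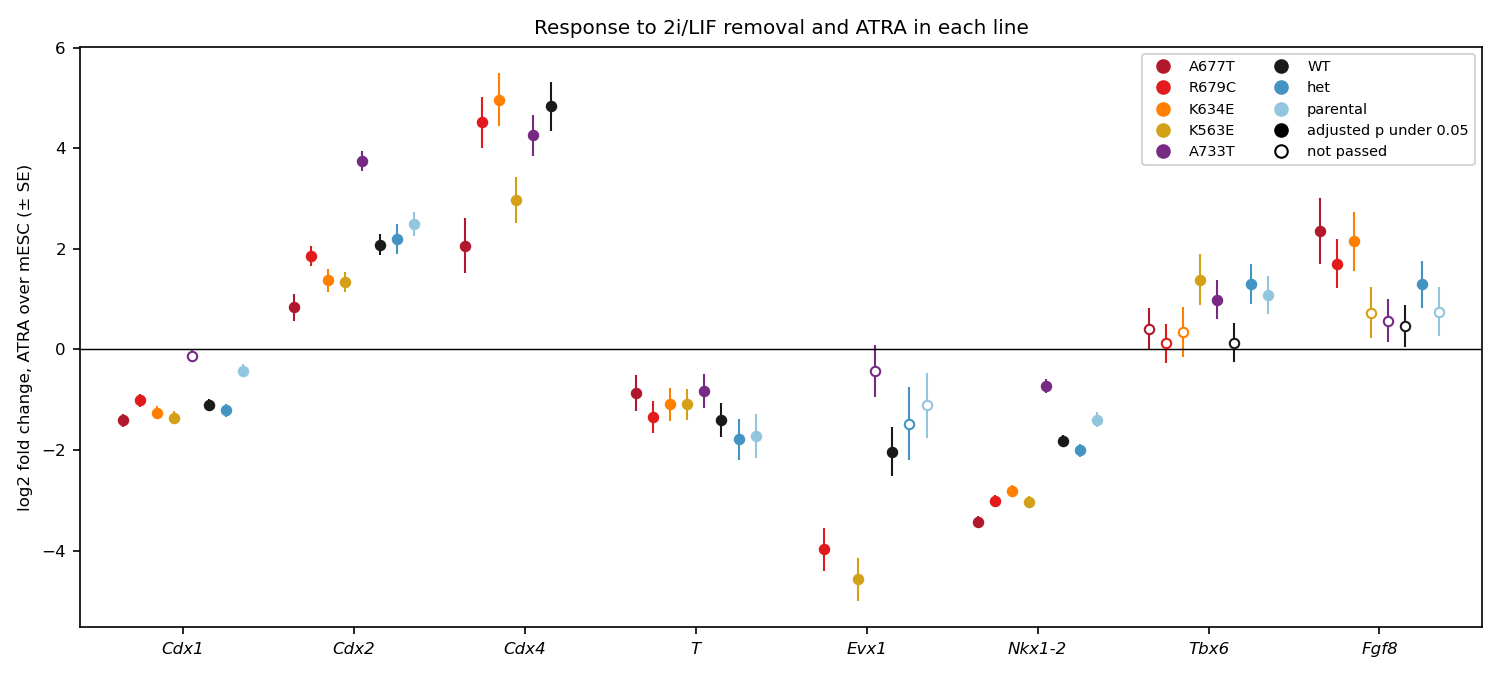
Log2 fold change of ATRA over mESC (y axis, ± SE) for each gene (x axis) in each of the 8 lines, with filled points for an adjusted p under 0.05. Cdx2 and Cdx4 lie above 0 and T and Nkx1-2 below 0 in every line drawn, with Nkx1-2 between -2.82 and -3.43 in the 4 lines of the Weaver mean. Cdx4 in het and parental cells and Evx1 in A677T and K634E are left out because 1 state held at most 3 counts.

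The second comparison asked how the variants differed from wild-type EZH2 added to the same line, in undifferentiated cells. Relative to WT, the Weaver mean had more Evx1 and Nkx1-2 and less Cdx1, while Cdx2, T and Tbx6 did not pass the test. Thus 3 of the 6 members tested changed, 2 higher and 1 lower, where 44.4% (21.4% higher and 22.9% lower) of all genes tested changed. The count was 5 of 7 tested without the A677T replicate 3 library and 2 with the GC correction, which left out Cdx1. The median log2 fold change was 0.19 over the members that passed the filter and -0.00 over all genes tested. The 4 variants share the WT libraries, so their values are set side by side and their likeness is no separate evidence. Markers of other cell types moved in this comparison as well. Of 8 endoderm markers tested of 14, 5 were lower and 2 higher in the Weaver mean than in WT, with Cxcr4 at -1.09 and Lama1 at -1.06, and their summed level was 63.2 to 101 CPM in the 4 variants, against 159 to 172 CPM in WT, with Ttr at 0 counts in all of these lines. Blood and endothelium markers had 0 higher and 4 lower of 8 tested of 12, at 52.3 to 78.9 CPM in the 4 variants, against 86.2 to 93.5 CPM in WT, with Hbb-bh1 at 0 counts in all of these lines. Trophoblast markers had 4 higher and 6 lower of 12 tested of 18, at 973 to 1232 CPM, against 1269 to 1379 CPM in WT. Esrrb is on both this list and that of the stem cell markers, so the sum does not stand for trophoblast alone. After ATRA the sum in WT was 157 to 168 CPM, with Esrrb at -4.48 against mESC. The part of these cell types in the member differences was not tested.

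Nkx1-2 had 59.3, 54.3 and 48.4 CPM in the A677T libraries, 51.1, 45.4 and 45.7 in R679C, 42.9, 40.1 and 41.0 in K634E and 55.0, 48.6 and 45.5 in K563E, against 34.5, 30.4 and 26.9 CPM in WT. All 12 variant libraries were above the 3 WT libraries. The Weaver mean exceeded WT by 0.68 (SE 0.08, adjusted p = 1.59e-07) on the log2 scale. Single variants rose by 0.86, 0.66, 0.46 and 0.73 in the same order, each past the threshold. Fgfr2, which overlaps this gene, was also higher, with a log2 fold change of 1.08 and means of 0.595 to 1.13 CPM in the 4 variants and 0.374 CPM in WT.

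Evx1 passed in 3 of the 4 variants. It had 4.18, 4.44 and 3.27 CPM in K563E, 2.74, 2.27 and 2.71 in R679C and 1.62, 1.53 and 2.21 in K634E, against 0.557, 0.810 and 0.940 CPM in WT. Those 3 lines did not overlap with WT, and their log2 fold changes were 2.40 (SE 0.25, adjusted p = 3.49e-08), 1.76 (SE 0.25, adjusted p = 1.25e-05) and 1.24 (SE 0.27, adjusted p = 0.00125). In A677T it lay below WT, at 0.490, 0.386 and 0.441 CPM, and the difference of -0.77 (SE 0.34, adjusted p = 0.0676) did not pass. The Weaver mean of 1.16 (SE 0.23, adjusted p = 0.000205) therefore averages lines of opposite sign. The antisense gene Evx1os overlaps Evx1, and its means were at most 0.619 CPM, reached in K563E, and 0.200 CPM in WT. Whether the libraries kept strand is not given in the sources used here, so reads of both genes cannot be told apart.

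Cdx1 had 93.8, 104 and 71.6 CPM in A677T, 107, 94.9 and 82.3 in R679C, 92.7, 79.0 and 88.0 in K634E and 104, 101 and 77.5 in K563E, against 121, 117 and 125 CPM in WT. Every variant library was below the WT libraries, and the Weaver mean differed by -0.37 (SE 0.09, adjusted p = 0.00185). The longest Cdx1 transcript is 62.1% GC, and with the GC correction the difference was -0.01 (adjusted p = 0.900). The single-variant calls in A677T (-0.39), K634E (-0.45) and K563E (-0.33) were lost in the same way. Without the A677T replicate 3 library the A677T call was also lost (adjusted p = 0.0613), and that in K563E was lost without any 1 of 4 libraries (adjusted p up to 0.198).

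K563E was the line in which all 6 members tested passed, against a background of 34.5% (16.8% higher and 17.8% lower). With the GC correction 4 of them passed. Cdx2 had 2.00, 1.90 and 1.32 CPM in K563E, against 1.01, 1.14 and 0.829 CPM in WT, a log2 fold change of 0.82 (SE 0.30, adjusted p = 0.0343). T had 5.27, 4.07 and 4.12 CPM in K563E, against 2.68, 2.95 and 2.88 CPM in WT (0.69, SE 0.26, adjusted p = 0.0434), and Tbx6 had 0.182, 0.163 and 0.264 CPM, against 0.860, 0.572 and 0.387 CPM in WT (-1.52, SE 0.51, adjusted p = 0.0218). All 3 genes held K563E and WT apart without overlap. These 3 calls were near the threshold, and each was lost without single libraries, Cdx2 without any 1 of 4 (adjusted p up to 0.127), T without any 1 of 6 (up to 0.153) and Tbx6 without any 1 of 3 (up to 0.118). In A677T mESC, 1 of 6 members tested were higher and 1 lower, beside 22.4% and 22.2% of all genes, 44.6% in all. In R679C mESC, 2 of 6 members tested were higher and 0 lower, beside 11.1% and 12.6% of all genes, 23.7% in all. In K634E mESC, 2 of 6 members tested were higher and 1 lower, beside 14.5% and 14.8% of all genes, 29.3% in all. Tbx6 in the Weaver mean was -0.72 (SE 0.34, adjusted p = 0.0930), and passed with an adjusted p of 0.044 without the A677T replicate 3 library.

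Fgf8 did not pass the filter in mESC, so it was tested only with no filter. Its libraries ran from 0.0482 to 0.363 CPM in the 4 variant lines, against 0.304, 0.381 and 0.719 CPM in WT. The Weaver mean then differed from WT by -1.64 on the log2 scale (SE 0.50, adjusted p = 0.00702), with A677T at -2.49 (adjusted p = 0.00945) and K634E at -2.06 (adjusted p = 0.0338). These calls rest on 4 counts in A677T and 14 in K563E, the lowest and highest of the 4 lines, and 27 in WT. The longest Fgf8 transcript is 62.8% GC, and the fit with no filter was not run with the GC correction. R679C and K563E did not pass (-1.24 and -0.78). Cdx4 gave no call in that fit, at 0.51 (SE 0.88, adjusted p = 0.893).

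**Figure D3:**
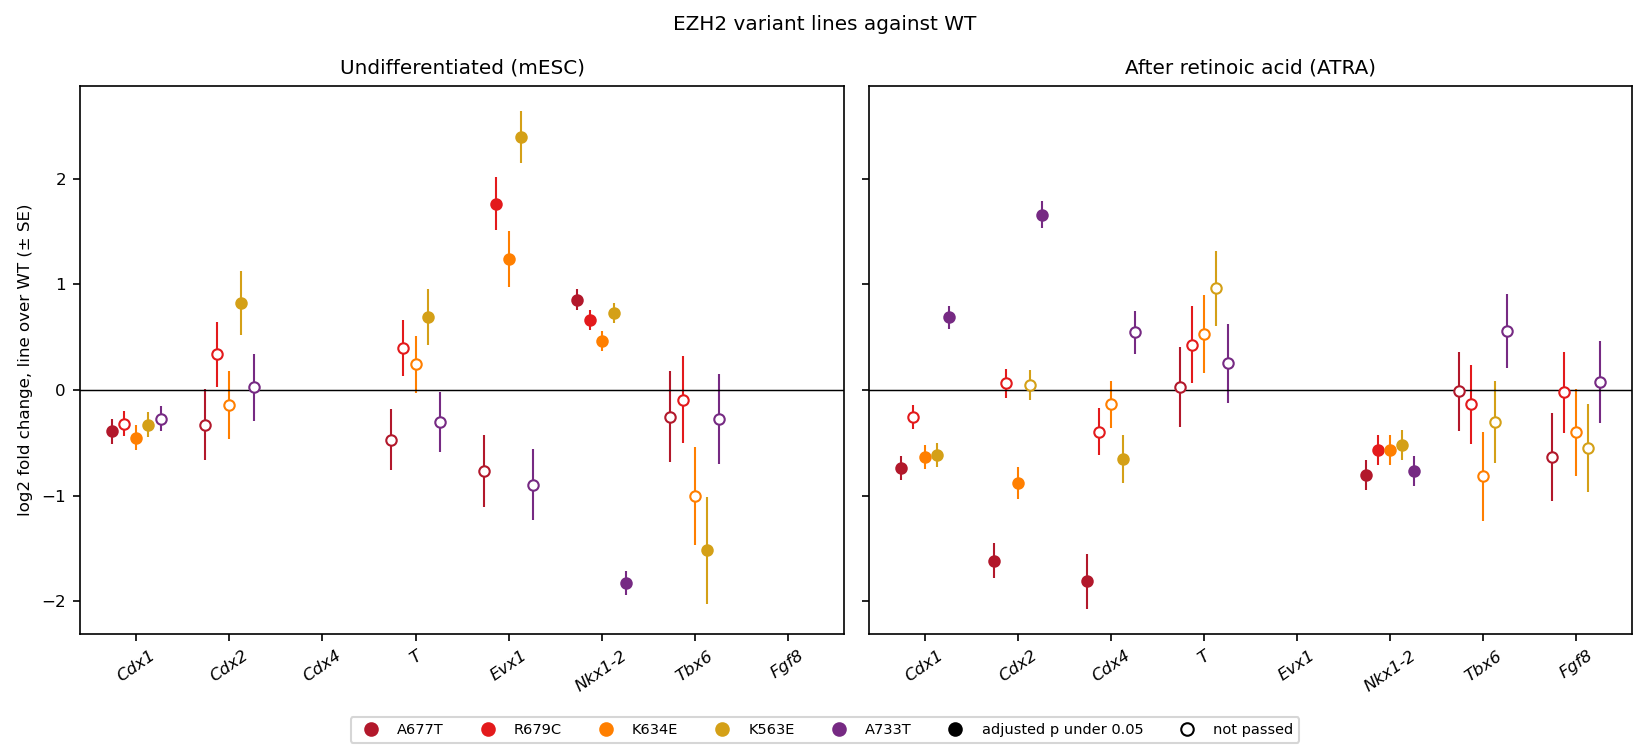
Log2 fold change of each variant line over WT (y axis, ± SE) for each gene (x axis), undifferentiated on the left and after ATRA on the right, with filled points for an adjusted p under 0.05. Nkx1-2 lies above 0 in A677T, R679C, K634E and K563E in mESC and below 0 in all 5 variants after ATRA, and Cdx2 after ATRA runs from -1.62 in A677T to 1.66 in A733T. Genes that did not pass the filter in a state are blank.

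After ATRA the Weaver mean was lower than WT for Cdx1, Cdx2, Cdx4 and Nkx1-2, 4 of 7 members tested with 0 higher, where 20.5% (8.43% higher and 12.1% lower) of all genes tested changed. The median log2 fold change was -0.56 over the members that passed the filter and -0.00 over all genes tested. T, Tbx6 and Fgf8 did not pass, at 0.49, -0.32 and -0.40.

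Cdx2 passed in 2 of the 4 variants. It had 1.23, 1.44 and 1.48 CPM in A677T and 1.92, 2.29 and 2.68 in K634E, against 4.36, 4.59 and 3.80 CPM in WT, with no overlap. The log2 fold changes were -1.62 (SE 0.16, adjusted p = 3.24e-08) and -0.88 (SE 0.15, adjusted p = 0.000223). In R679C it had 4.38, 4.48 and 4.42 CPM and in K563E 4.21, 4.06 and 4.91 CPM, which overlap with WT, and the differences of 0.06 (SE 0.14, adjusted p = 0.835) and 0.05 (SE 0.14, adjusted p = 0.853) did not pass. The Weaver mean differed by -0.60 (SE 0.11, adjusted p = 0.000263), an average of lines that were lower and lines that did not pass.

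Cdx1 had 32.4, 39.5 and 29.2 CPM in A677T, 49.9, 47.5 and 43.3 in R679C, 36.6, 42.6 and 28.8 in K634E and 36.9, 40.4 and 32.9 in K563E, against 56.3, 61.9 and 50.5 CPM in WT. All variant libraries were below all WT libraries, and the Weaver mean differed by -0.56 (SE 0.08, adjusted p = 1.82e-05), or 1.48-fold lower. A677T (-0.74), K634E (-0.63) and K563E (-0.61) passed alone, and R679C did not (-0.26, SE 0.11, adjusted p = 0.146). Same-numbered R679C and WT libraries deviated together, and with a replicate block, which adds the labels' replicate number to the fit, R679C passed for Cdx1 (adjusted p = 0.0155), as it did with the GC correction (0.000404).

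Cdx4 had 0.590, 0.698 and 0.931 CPM in A677T, against 2.07, 2.93 and 2.73 CPM in WT, with a log2 fold change of -1.81 (SE 0.26, adjusted p = 8.18e-06). Its 3 lowest libraries after ATRA were those of A677T. K563E had 1.04, 1.67 and 2.18 CPM, which overlaps with WT, and its call (-0.66, SE 0.23, adjusted p = 0.0409) was lost without any 1 of 4 libraries, with adjusted p up to 0.199. R679C (-0.39) and K634E (-0.14) did not pass.

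Nkx1-2, which was higher than WT in mESC, was lower after ATRA in all 4 lines. It had 5.04, 4.61 and 5.37 CPM in A677T, 6.41, 5.55 and 5.59 in R679C, 6.64, 5.26 and 5.71 in K634E and 7.51, 5.74 and 5.07 in K563E, against 9.71, 7.99 and 8.54 CPM in WT. No variant library reached the lowest WT library, and the Weaver mean differed by -0.62 (SE 0.11, adjusted p = 0.000123). Single values ran from -0.81 in A677T to -0.52 in K563E, all past the threshold. Those in R679C and K563E did not pass without the WT replicate 1 library (adjusted p = 0.0553 and 0.0562), nor that in K563E without its own replicate 3 (0.0884). Fgfr2 averaged 24.8 to 28.7 CPM in these variants and 30.6 CPM in WT after ATRA, and the treatment of reads that fall in both genes is not given in the sources used here.

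T did not pass in any variant after ATRA. It had 2.02, 2.53 and 1.69 CPM in K563E, against 1.25, 0.949 and 1.03 CPM in WT, with no overlap, and the difference of 0.96 (SE 0.35, adjusted p = 0.0532) missed the threshold. In A677T after ATRA, 0 of 7 members tested were higher and 4 lower, beside 8.33% and 11.1% of all genes, 19.4% in all. In R679C after ATRA, 0 of 7 members tested were higher and 1 lower, beside 4.87% and 5.45% of all genes, 10.3% in all. In K634E after ATRA, 0 of 7 members tested were higher and 3 lower, beside 7.38% and 7.65% of all genes, 15.0% in all. In K563E after ATRA, 0 of 7 members tested were higher and 3 lower, beside 8.53% and 11.9% of all genes, 20.5% in all.

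Whether a variant changed a gene's response, here to the removal of 2i and LIF with ATRA, was tested as the interaction over all 48 libraries. For the Weaver mean, the Nkx1-2 response was lower than in WT by -1.26 (SE 0.13, adjusted p = 1.39e-09) on the log2 scale, and 2 of 8 members passed, where 7.07% (4.54% higher and 2.53% lower) of all genes did. It passed in each line, at -1.62 in A677T, -1.20 in R679C, -1.01 in K634E and -1.22 in K563E. Evx1 also passed (-2.05, SE 0.65, adjusted p = 0.0445), though its ATRA libraries held 3 to 12 counts per group in these lines and WT, and the call was lost without any 1 of 13 libraries, with adjusted p up to 0.212. Cdx2 was near the threshold (-0.73, SE 0.24, adjusted p = 0.0584), and in A677T alone it passed (-1.25, SE 0.35, adjusted p = 0.0171), except without the A677T replicate 1 library in mESC (0.0647). Cdx4 in A677T (-2.77, SE 0.91, adjusted p = 0.0473) was lost without any 1 of 8 libraries, with adjusted p up to 0.359, and Evx1 in K563E (-2.54, SE 0.76, adjusted p = 0.0456) without any 1 of 8, up to 0.22. Cdx1 did not pass (-0.16, SE 0.14, adjusted p = 0.545), but with the GC correction it was -0.43 (adjusted p = 1.52e-07). For the response of A677T, 0 of 8 members passed in the higher direction and 3 in the lower, beside 5.63% and 3.28% of all genes, 8.91% in all. For the response of R679C, 0 of 8 members passed in the higher direction and 1 in the lower, beside 2.79% and 1.78% of all genes, 4.58% in all. For the response of K634E, 0 of 8 members passed in the higher direction and 1 in the lower, beside 0.667% and 0.599% of all genes, 1.27% in all. For the response of K563E, 0 of 8 members passed in the higher direction and 2 in the lower, beside 2.44% and 1.52% of all genes, 3.96% in all.

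**Figure D4:**
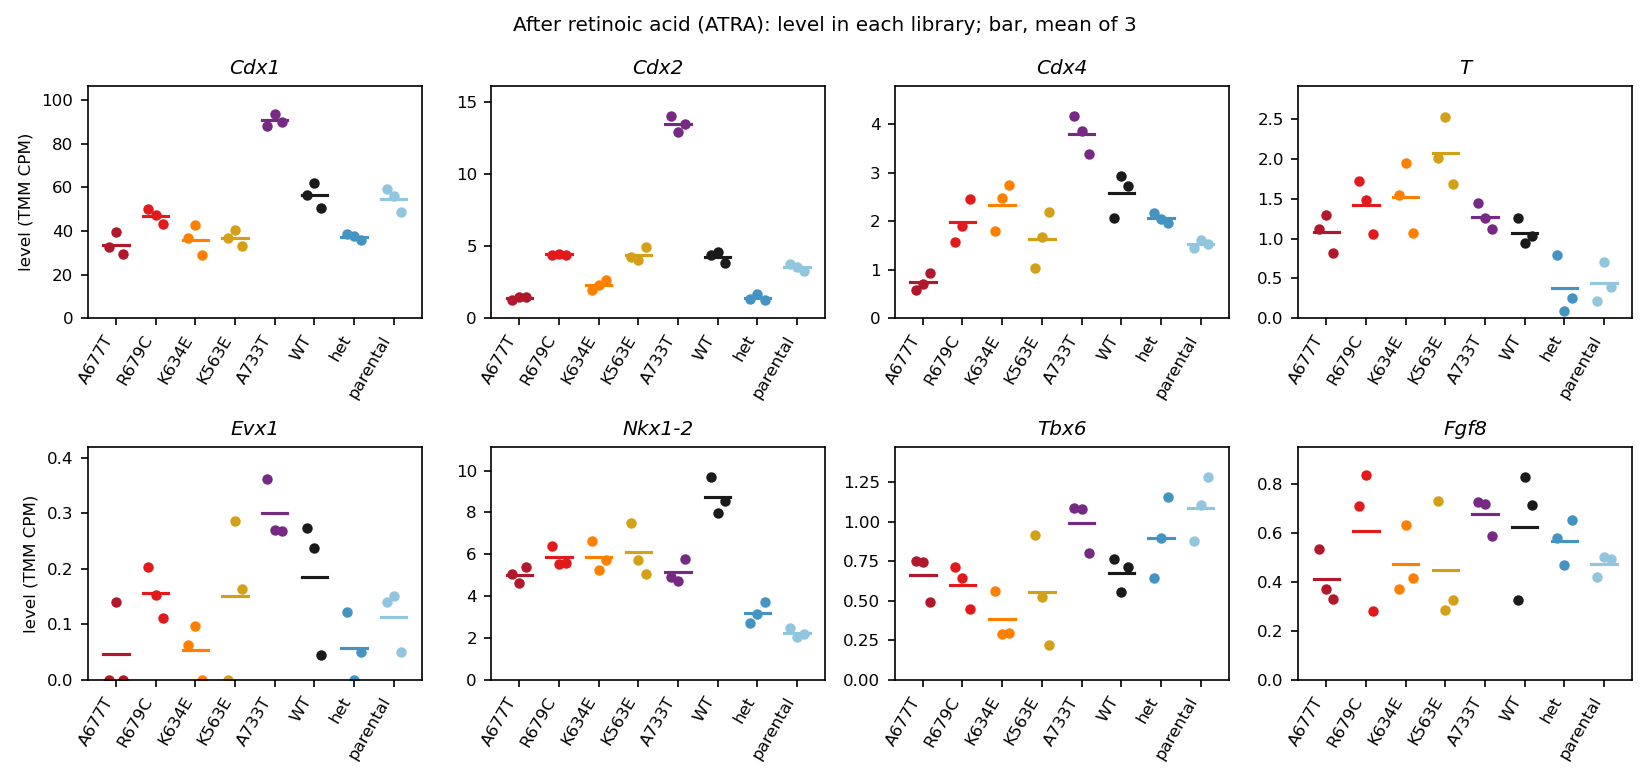
Level of each of the 8 genes in each library after ATRA, in TMM CPM on the y axis, by line on the x axis, with points for libraries and a bar for the mean of 3. The 3 A733T libraries are the highest for Cdx1, Cdx2 and Cdx4, with Cdx2 at 12.9 to 14.0 CPM and at most 4.91 CPM elsewhere.

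A733T, the variant kept apart, had more Cdx1 and Cdx2 than WT after ATRA and less Nkx1-2, 3 of 7 members tested, where 17.7% (10.4% higher and 7.33% lower) of all genes tested changed. The median log2 fold change was 0.55 over the members that passed the filter and 0.02 over all genes tested. Cdx2 had 14.0, 12.9 and 13.5 CPM in A733T, against 4.36, 4.59 and 3.80 CPM in WT, a difference of 1.66 (SE 0.13, adjusted p = 3.27e-10) or 3.16-fold. Cdx1 had 88.2, 93.5 and 90.2 CPM, against 56.3, 61.9 and 50.5 CPM in WT (0.69, SE 0.11, adjusted p = 6.29e-05). Cdx4 had 4.17, 3.86 and 3.37 CPM, against 2.07, 2.93 and 2.73 CPM in WT, and its difference was 0.55 (SE 0.21, adjusted p = 0.0649). All 3 CDX genes held A733T above WT without overlap. Same-numbered A733T and WT libraries deviated together, and with the replicate block Cdx4 passed as well (adjusted p = 0.0321).

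Nkx1-2 was lower in A733T than in WT in both states. In mESC it had 8.51, 9.76 and 7.21 CPM, against 34.5, 30.4 and 26.9 CPM in WT, a difference of -1.83 (SE 0.11, adjusted p = 3.63e-12) or 3.55-fold lower. It was the 1 member of 6 that changed in mESC, where 19.3% (10.7% higher and 8.64% lower) of all genes tested did. Fgfr2, which overlaps it, was higher in A733T mESC, at 1.20 CPM, against 0.374 CPM in WT (1.68). Evx1 had 0.345, 0.444 and 0.412 CPM in A733T, below all WT libraries at 0.557, 0.810 and 0.940 CPM, without passing (-0.90, SE 0.34, adjusted p = 0.0639). After ATRA Nkx1-2 had 4.89, 4.72 and 5.78 CPM in A733T, against 9.71, 7.99 and 8.54 CPM in WT (-0.77, SE 0.14, adjusted p = 0.000437).

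The response to ATRA in A733T differed from that in WT for 3 members, where 3.17% (1.76% higher and 1.41% lower) of all genes passed the interaction test. Cdx2 responded more (1.66, SE 0.31, adjusted p = 0.000403). Cdx1 fell less (0.98, SE 0.18, adjusted p = 0.000366), and so did Nkx1-2 (1.08, SE 0.18, adjusted p = 5.56e-05).

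Set against the Weaver mean rather than WT, A733T mESC had less Evx1 (-2.05, SE 0.26, adjusted p = 2.81e-07) and less Nkx1-2 (-2.51, SE 0.10, adjusted p = 1.87e-17), 2 of 6 members tested, where 50.3% (26.8% higher and 23.5% lower) of all genes changed. With the GC correction 4 members passed, Cdx1 (-0.11, adjusted p = 0.0200) and T (-0.58, adjusted p = 0.0173) being the 2 added, and the sign for Cdx1 turned from 0.10. Without that correction T did not pass (-0.52, SE 0.23, adjusted p = 0.0596), except without the replicate 3 library of A677T (adjusted p = 0.0106) or of R679C, or without the K634E replicate 2 library. Fgf8, tested only without the filter, was higher in A733T than in the Weaver mean by 1.62 (adjusted p = 0.00687), with 0.345, 0.444 and 0.566 CPM in A733T. That fit was not run with the GC correction. After ATRA, A733T had more Cdx1 (1.25, SE 0.08, adjusted p = 1.37e-12), Cdx2 (2.26, SE 0.09, adjusted p = 8.95e-17), Cdx4 (1.30, SE 0.17, adjusted p = 2.66e-07) and Tbx6 (0.87, SE 0.28, adjusted p = 0.0122), 4 of 7 members tested and 48.5% (27.0% higher and 21.5% lower) of all genes. Nkx1-2 did not pass there (-0.15, SE 0.12, adjusted p = 0.323). The Tbx6 call was lost without the A733T replicate 1 or replicate 2 library (adjusted p = 0.0552 and 0.0726).

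Trophoblast markers were looked at beside Cdx2, which also marks that lineage. Of all genes tested, 17.7% (10.4% higher and 7.33% lower) differed between A733T and WT after ATRA. After ATRA, 9 of the 14 tested of 18 markers were higher in A733T than in WT and 1 was lower, with Tfap2c at 1.52, Esx1 at 1.14 and Krt7 at 1.12. Their summed level was 244 to 255 CPM in A733T, against 157 to 168 CPM in WT. The placental markers Tpbpa and Prl3d1 had 0 counts in both lines. Neural markers also moved with Cdx2 there, 7 of 11 tested being higher in A733T and 0 lower, with a summed level of 227 to 243 CPM, against 182 to 195 CPM in WT. Of 11 stem cell markers 6 were higher and 1 lower, with Dppa3 at 1.71, Esrrb at 0.59 and Tfcp2l1 at 0.47, while their summed level, 739 to 796 CPM in A733T and 747 to 769 CPM in WT, overlapped. Esrrb is on the trophoblast list as well. Fibroblast feeder markers had 3 higher and 0 lower of 6 tested of 12, at 11.3 to 16.1 CPM, against 7.47 to 7.67 CPM in WT. Blood and endothelium markers had 1 higher and 5 lower of 9 tested, at 96.1 to 98.3 CPM, against 125 to 135 CPM in WT, and endoderm markers 2 higher and 1 lower of 11, at 409 to 452 and 391 to 442 CPM. The part of these cell types in the CDX differences was not tested.

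WT cells, the het line with added EZH2, had more of several members than het cells in both states. In mESC, 5 of 6 members tested were higher in WT than in het and 0 lower, where 12.1% (5.22% higher and 6.84% lower) of all genes tested changed. The median log2 fold change was 1.11 over the members that passed the filter and -0.01 over all genes tested. Nkx1-2 had 34.5, 30.4 and 26.9 CPM in WT, against 13.0, 12.0 and 13.0 CPM in het (1.27, SE 0.10, adjusted p = 3.09e-09). Evx1 had 0.557, 0.810 and 0.940 CPM in WT, against 0.159, 0.148 and 0.260 CPM in het (1.96, SE 0.38, adjusted p = 0.00100). Cdx2 had 1.01, 1.14 and 0.829 CPM in WT, against 0.318, 0.295 and 0.303 CPM in het (1.69, SE 0.38, adjusted p = 0.00380). Cdx1 (0.48, SE 0.12, adjusted p = 0.00726) and T (0.94, SE 0.30, adjusted p = 0.0374) were higher too, Cdx1 at 121 CPM on average in WT and 86.4 CPM in het, and T at 2.84 and 1.47 CPM. In all 5 genes the WT libraries lay above the het libraries. The T call was lost without any 1 of the 6 libraries (adjusted p up to 0.121), and that of Cdx1 without the het replicate 3 library (0.0505). Tbx6 did not pass (0.77, SE 0.44, adjusted p = 0.289).

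After ATRA, 4 of 7 members tested were higher in WT than in het and 0 lower, where 16.4% (7.65% higher and 8.74% lower) of all genes changed. The median log2 fold change was 0.59 over the members that passed the filter and -0.01 over all genes tested. Cdx2 had 4.36, 4.59 and 3.80 CPM in WT, against 1.32, 1.71 and 1.26 CPM in het (1.58, SE 0.16, adjusted p = 2.96e-08). Nkx1-2 had 9.71, 7.99 and 8.54 CPM in WT, against 2.69, 3.16 and 3.72 CPM in het (1.47, SE 0.15, adjusted p = 4.97e-08), and Cdx1 differed by 0.59 (SE 0.11, adjusted p = 0.000411). None of these 3 genes had overlapping libraries. T had 1.25, 0.949 and 1.03 CPM in WT, against 0.796, 0.0855 and 0.251 CPM in het (1.34, SE 0.43, adjusted p = 0.0301), a call lost without any 1 of 4 libraries (adjusted p up to 0.16). Cdx4 (0.33), Tbx6 (-0.38) and Fgf8 (0.18) did not pass. Markers of blood and endothelium moved with these genes, 7 of 9 tested of 12 being higher in WT and 1 lower, with a summed level of 125 to 135 CPM in WT, against 73.1 to 77.5 CPM in het. Hba-x had 0 counts in WT. Endoderm markers did so too, 10 of 11 tested of 14 being higher in WT and 0 lower, at 391 to 442 CPM in WT, against 273 to 293 CPM in het, with Ttr at 0 counts in both. Stem cell markers went the other way, 0 of 11 tested being higher in WT and 5 lower. Fgf4 was at -0.64, Tfcp2l1 at -0.56 and Nanog at -0.39. Their summed level was 747 to 769 CPM in WT, against 865 to 943 CPM in het. The part of all these markers in the differences of the members was not tested.

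The loss of 1 Ezh2 allele was compared with the parental line. In mESC, het had 13.0, 12.0 and 13.0 CPM of Nkx1-2, against 6.12, 5.93 and 5.72 CPM in parental cells, a log2 fold change of 1.09 (SE 0.12, adjusted p = 1.46e-06). It was the 1 member of 6 that changed, where 3.44% (1.17% higher and 2.26% lower) of all genes tested did. Fgfr2 went the other way, at 0.346 CPM in het and 0.970 CPM in parental cells. After ATRA, Cdx2 had 1.32, 1.71 and 1.26 CPM in het, against 3.79, 3.57 and 3.30 CPM in parental cells (-1.33, SE 0.16, adjusted p = 1.2e-06). Cdx1 had 38.6, 37.7 and 35.8 CPM in het, against 59.1, 55.8 and 48.8 CPM in parental cells (-0.55, SE 0.11, adjusted p = 0.00162). Neither gene's libraries overlapped, and these were the 2 members of 7 that changed, where 6.25% (2.20% higher and 4.05% lower) of all genes did. Trophoblast markers fell with them, 9 of 14 tested being lower in het and 0 higher, with a summed level of 173 to 179.9 CPM in het and 236 to 242 CPM in parental cells, Tpbpa and Prl3d1 again at 0 counts. Stem cell markers fell as well, 6 of 11 tested being lower in het and 1 higher. Tdh was at -0.69, Esrrb, which is on both lists, at -0.60 and Klf4 at -0.50. Their summed level was 865 to 943 CPM in het and 949 to 1014 CPM in parental cells. Endoderm markers had 2 higher and 0 lower of 11 tested. The part of these markers in the member differences was not tested. Nkx1-2 after ATRA was 0.48 (SE 0.17, adjusted p = 0.103), which did not pass although the libraries did not overlap.

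Across all lines the order of the levels gives the whole pattern, described here without a test. Nkx1-2 in mESC averaged 54.0 CPM in A677T, 49.7 in K563E and 47.4 in R679C, whose libraries overlap, then 41.3 in K634E, 30.6 in WT, 12.7 in het, 8.49 in A733T and 5.93 CPM in parental cells, each of these below the one before without overlap. After ATRA the order changed to WT at 8.75 CPM, then the 5 variants between 6.11 and 5.01 CPM with overlap, then het at 3.19 and parental cells at 2.23 CPM. Cdx2 after ATRA ran from 13.5 CPM in A733T through R679C, K563E and WT, which overlap at 4.43, 4.40 and 4.25 CPM, to 3.56 in parental cells, 2.30 in K634E, 1.43 in het and 1.39 CPM in A677T, of which only het and A677T overlap. Evx1 in mESC ran from 3.97 CPM in K563E over 2.57 in R679C, 1.79 in K634E and 0.769 in WT to A677T, A733T, parental and het cells between 0.439 and 0.189 CPM, where neighbours overlap. Cdx1 in mESC was highest in WT at 121 CPM, and the other 7 lines between 98.7 and 73.1 CPM each overlapped with the next. After ATRA it was at 90.6 CPM in A733T, then at 56.3, 54.6 and 46.9 CPM in WT, parental and R679C cells, where neighbours overlap, and at 37.4 to 33.7 CPM in het, K563E, K634E and A677T. For T in mESC, and for Tbx6 and Fgf8 after ATRA, every line overlapped with its neighbour in the order.

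Over the 16 group means of log2(CPM + 0.5), centred within each state, the correlation of each pair of members was computed. Each line gives 2 points, from its mESC and its ATRA libraries, and the points carry the GC trends of those libraries. The correlations only describe them. Cdx4 and Fgf8 in mESC and Evx1 in ATRA averaged below 0.5 CPM in every line, so those points lie near the floor. Cdx1 and Cdx2 had a Pearson r of 0.80, Cdx2 and Cdx4 of 0.70, and Cdx1 and Cdx4 of 0.66. T and Evx1 had an r of 0.68, T and Nkx1-2 of 0.68, and Evx1 and Nkx1-2 of 0.66. Between these 2 trios r reached 0.51 for Cdx2 with T and with Evx1, and was otherwise 0.10 to 0.31. Cdx1 had an r of 0.50 with Tbx6 and 0.51 with Fgf8, while T and Tbx6 had an r of -0.57. Of 13424 genes, those most like Cdx2 were Hoxd1 (0.897), Sp5 (0.874) and Gsx1 (0.874). Those most like Cdx1 were Fam43b (0.891), Metrnl (0.874) and Hoxb6 (0.871), and those most like Cdx4 were Magi2 (0.848), Phospho2 (0.838) and Tpbg (0.836). Nkx1-2 was most like Lhpp (0.954), Acaca (0.951) and Basp1 (0.945), Evx1 most like En1 (0.930), Ccnd2 (0.870) and Ift20 (0.862), and T most like Nefh (0.942), Dusp12 (0.933) and Wdr77 (0.922). Tbx6 was most like Rhov (0.923), B3gnt8 (0.859) and Slc50a1 (0.854), and Fgf8 most like Caskin1 (0.949), Chpf (0.895) and Rab36 (0.886).

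CDX proteins act on trunk and posterior Hox genes in the embryo, and 21 of 29 were tested after ATRA. In the Weaver mean 10 were lower and 1 higher than in WT, beside 20.5% (8.43% higher and 12.1% lower) of all genes, with a median log2 fold change of -0.65. Hoxd9 differed by -1.63, Hoxa11 by -1.15 and Hoxb9 by -1.06. In A733T 14 were higher and 3 lower than in WT, beside 17.7% (10.4% higher and 7.33% lower) of all genes (median log2 fold change 0.71), and Hoxc9 (2.86), Hoxc8 (2.58) and Hoxd9 (2.31) differed most. In WT against het 14 were higher and 0 lower, beside 16.4% (7.65% higher and 8.74% lower) (median 0.65). In het against parental cells 1 was higher and 4 were lower, beside 6.25% (2.20% higher and 4.05% lower) (median -0.24). The medians over all genes tested lay between -0.01 and 0.02 in these comparisons. The summed Hox level after ATRA was 314 to 494 CPM in the 4 variants and 588 to 623 CPM in A733T, against 495 to 516 CPM in WT, 289 to 324 in het and 298 to 335 in parental cells. The Hox sum and the CDX genes ordered the lines alike only in part. A733T was highest and A677T (314 to 333 CPM) lowest of the variants in mean Hox sum, Cdx1, Cdx2 and Cdx4. For Cdx1 the A677T libraries overlapped with those of K634E and K563E. The lowest Cdx1 library was K634E replicate 3, at 28.8 CPM, against 29.2 CPM in the lowest of A677T. R679C (440.0 to 494 CPM) and K563E (477 to 491 CPM) lay below WT in the Hox sum. Their Cdx1 libraries were also all below WT, while their Cdx2 levels overlapped with WT. Het and parental cells overlapped in the Hox sum, and Cdx1 and Cdx2 were lower in het. Parental cells lay below WT in the Hox sum, and their Cdx1 overlapped with that of WT. The relation of CDX and Hox levels was not tested.

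In mESC 8 of the Hox genes were tested, of which 0 were higher and 4 lower in the Weaver mean than in WT, beside 44.4% (21.4% higher and 22.9% lower) of all genes, and 6 higher and 0 lower in A733T than in WT, beside 19.3% (10.7% higher and 8.64% lower). The medians were -0.92 and 1.23, beside -0.00 and 0.03 over all genes tested. Their summed level was 3.97 to 6.83 CPM in the 4 variants and 21.2 to 21.6 CPM in A733T, against 9.71 to 11.1 CPM in WT. Hoxc4 (-2.63), Hoxc10 (-2.38) and Hoxc12 (-2.07) differed most in the Weaver mean, and Hoxb13 (2.28), Hoxb9 (1.70) and Hoxd13 (1.59) in A733T.

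WNT and axial progenitor genes are the signals and partners of the zone. In mESC 4 of 17 tested of 22 were higher and 4 lower in the Weaver mean than in WT, a share near that of all genes (44.4% (21.4% higher and 22.9% lower); median 0.03), with Wnt8a, a ligand of the posterior embryo, at 1.84, Wnt3a, the ligand that maintains axial progenitors, at -1.37, and Lef1, a nuclear effector of WNT signalling, at 1.24. After ATRA 3 of 19 were higher and 4 lower, where 20.5% (8.43% higher and 12.1% lower) of all genes changed (median 0.07), with Wnt3a at -2.72, Wnt3 at 1.40 and Axin2, a feedback target of WNT signalling, at -0.72. In A733T 3 were higher and 3 lower than in WT in mESC, beside 19.3% (10.7% higher and 8.64% lower) of all genes, with Notum at -1.78, Wnt3 at 1.41 and Lef1 at -1.11. After ATRA 5 were higher and 3 lower there, beside 17.7% (10.4% higher and 7.33% lower), with Wnt3 at 1.54, Lef1 at -1.18 and Notum at -1.02.

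The shares of all genes called in these comparisons, 44.4% and 20.5% for the Weaver mean in mESC and ATRA and 19.3% and 17.7% for A733T, also stand beside the next lists. Primitive streak and paraxial mesoderm genes, among them the partners of T and Tbx6, showed 1 higher and 3 lower of 13 tested of 22 in the Weaver mean in mESC, with Wnt11 at -0.91, Dll3 at -0.82 and Lefty2 at -0.61. After ATRA 1 was higher and 4 were lower of 16 tested, with Lefty2 at -1.08, Foxc1 at -1.02 and Pdgfra at -0.99. In A733T 2 were higher and 2 lower in mESC. After ATRA 6 were higher and 1 lower there, Foxc1 (2.58), Foxc2 (1.99) and Meox1 (1.46) differing most.

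FGF ligands and ERK targets, 18 of 18 tested, had 7 higher and 2 lower in the Weaver mean in mESC, with Fgf3 at -1.40, Fgf18 at -1.12 and Fgfr2 at 1.08. The median of the list was -0.01. After ATRA 5 were higher and 4 lower, with Fgf3 at -0.79, Fgf5 at 0.69 and Spred1 at 0.35. In A733T they had 3 higher and 5 lower in mESC and 2 higher and 2 lower after ATRA. Of 14 intestinal genes that CDX2 turns on in the gut, 4 passed the filter in mESC and 5 after ATRA, and 6 to 9 had 0 counts in a line in mESC and 2 to 7 after ATRA. In mESC 2 of the 4 were lower in the Weaver mean than in WT, Vil1 (-1.46) and Lgals4 (-0.92), and 1, Lct, was higher in A733T (1.75). After ATRA 0 of the 5 passed in the Weaver mean and 1, Krt20, was higher in A733T (0.51).

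Markers of other cell types were set beside the lower CDX genes of the Weaver mean after ATRA. Of all genes tested, 20.5% (8.43% higher and 12.1% lower) changed in that comparison. Of 14 endoderm markers 11 were tested, and 9 were lower and 0 higher in the Weaver mean than in WT, with Foxa2 at -1.45 and Lama1 at -1.20. Their summed level was 184 to 228 CPM in the 4 variants, against 391 to 442 CPM in WT, with Ttr at 0 counts in all of these lines. Blood and endothelium markers had 4 higher and 2 lower of 9 tested, at 131 to 189.7 CPM in the 4 variants and 125 to 135 CPM in WT, and trophoblast markers 2 higher and 5 lower of 14, at 114 to 179 and 157 to 168 CPM. By line, the trophoblast sum after ATRA was 165 to 179 CPM in A677T, which overlapped with WT. It was 138 to 149 in R679C, 114 to 136 in K634E and 128 to 134 CPM in K563E, all below WT. Cdx2 was lower than WT in A677T and K634E and did not pass in R679C and K563E. Neural markers had 3 higher and 0 lower of 11 tested, and fibroblast feeder markers summed to 3.34 to 10.1 CPM in the 4 variants, against 7.47 to 7.67 CPM in WT. The part of these cell types in the member differences was not tested.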

How the data were processed

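Per the labels' protocols, poly(A) RNA was selected with poly-T beads, fragmented and copied with random hexamers. The authors deposited 1 table of raw counts per Ensembl gene and library, without normalisation, and the submitters' processing notes name the mm10 genome, STAR 2.7.3a, featureCounts 1.6.4, cutadapt 3.2 and DESeq2 1.38.3, without roles or order. Of the table's 54 columns, 6 match no label and were not used, so the line Y728 was not analysed here. Of 55401 identifiers, 55141 were found in GENCODE M21.

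The tests used edgeR 4.0.16 in R 4.3.3 (filterByExpr with a minimum count of 10, TMM, robust quasi-likelihood test), fitted per state on 24 libraries (16 residual degrees of freedom) or on all 48 (32) for ATRA against mESC and interactions. There were 32 comparisons, each with p-values adjusted by Benjamini-Hochberg over its whole gene table and called under 0.05. A gene with at most 3 counts in a group is given by its summed counts, with an exact 95% interval. The scripts were tested on simulated data. Depth is 15361598 to 31338825 counts per library.

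The plan's mean over Weaver variants counted Y728 and was run with the 4 lines that remain. Alternatives were DESeq2 1.42.0 and its size factors, no filter, a correction for gene GC content (5-df spline per library), a replicate block, both together, only the compared groups, and each library left out. Leaving out the 2 libraries that stand apart was chosen after seeing the data. Replicate numbers were taken to pair libraries where the deviations of every same-numbered pair correlated above 0.1, which held for R679C and A733T against WT in ATRA and for ATRA against mESC in K563E, A733T and parental cells. All 8 members were named in every comparison, with up to 3 called genes of largest change from a list, where it is not given by counts alone, and the 3 genes of highest correlation with each member. Of the genes this rule names, 1 is not reported here. The members and lists were chosen with earlier results of these data known. The lists overlap.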

Additional observations from a re-analysis of the deposited data

Results flagged for a closer look

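The members whose response to ATRA differed between a variant and WT by the interaction test (edgeR quasi-likelihood, adjusted p under 0.05 over all genes) are those below. For the Weaver mean they are Nkx1-2, by -1.26 on the log2 scale (adjusted p = 1.39e-09), and Evx1, by -2.05 (adjusted p = 0.0445). Nkx1-2 was higher than WT in mESC and lower than WT after ATRA in each of the 4 lines. Evx1 held 3 to 12 counts per group after ATRA in these lines and WT, and its call depended on single libraries.

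For A733T they are Cdx1, by 0.98 (adjusted p = 0.000366), Cdx2, by 1.66 (adjusted p = 0.000403), and Nkx1-2, by 1.08 (adjusted p = 5.56e-05). The Nkx1-2 response thus differed from WT in opposite directions in A733T and in the Weaver mean. Both tests use the same WT libraries, and the difference between these responses was not itself tested.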

How the results depend on the processing

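Over 229 values of single members, DESeq2 size factors changed a call or sign in 2, the DESeq2 test in 3, no filter in 11, the GC correction in 18 and the replicate block in 6, and the replicate block changed no call to not passing. Leaving out single libraries changed 98 of 2040 values, 85 of them to not passing, and reversed 0. A change of sign was counted only where the value passed in the main or the alternative fit. Where the numbers pair the libraries, the block added the calls of Cdx1 in R679C and Cdx4 in A733T against WT after ATRA and changed no other call of those comparisons. The block left the count of members changed, mESC Weaver mean vs WT, at 3.

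The main counts of members changed moved as follows. For members changed, mESC Weaver mean vs WT, 5 passed without the 2 libraries that stand apart, against 3. For members changed, mESC A733T vs WT, 2 passed with no filter and 2 with only the compared groups, against 1. For members changed, mESC het vs parental, GC correction gave 2 and block plus GC correction 2, against 1. For members changed, interaction of Weaver mean with ATRA, 1 passed with no filter, 1 with only the compared groups, 4 under GC correction and 4 under block plus GC correction, against 2. The GC correction also gave 4 members, against 2, in mESC A733T vs Weaver mean, 1, against 2, in mESC A677T vs WT, and 2, against 1, in ATRA R679C vs WT and in the interactions of R679C and of K634E with ATRA. With it, mESC K563E vs WT gave 4, against 6, and mESC K634E vs WT 2, against 3. Leaving out each library in turn gave 3 to 5 (mESC Weaver mean vs WT), 4 to 4 (ATRA Weaver mean vs WT), 1 to 2 (mESC A733T vs WT), 3 to 3 (ATRA A733T vs WT), 3 to 4 (mESC WT vs het), 3 to 4 (ATRA WT vs het), 1 to 1 (mESC het vs parental), 2 to 2 (ATRA het vs parental), 6 to 6 (ATRA vs mESC in WT) and 1 to 3 (interaction of Weaver mean with ATRA).

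Among values that passed in the main or the alternative fit, the sign reversed only for Cdx1. It did so only with the GC correction, without and with the block. Cdx1, mESC A677T vs WT became 0.0460 and 0.0456, Cdx1, mESC K563E vs WT became 0.0189 and 0.0189, Cdx1, mESC A733T vs Weaver mean became -0.110 and -0.109, and Cdx1, interaction of R679C with ATRA became -0.266 and -0.266. The cause was not tested. Beside members changed, mESC WT vs het, the count over all genes was 3241 under GC correction, against 1910. Beside members changed, ATRA WT vs het, it was 4229, against 2790, and beside members changed, mESC het vs parental, 1006, against 544. Low counts limit Cdx4 and Fgf8 in mESC and Evx1 after ATRA.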
